A study of Mus musculus with 18 samples.

Results

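Interferon-stimulated genes are described here in cultured CD4 T cells of a lupus-prone mouse strain. The set is a list of 46 genes, taken by symbol, that covers genes induced by type I and type II interferons together with the interferon-inducible GTPases. All 46 symbols were found among the 36522 table entries that carry a symbol. Levels are in nRPKM, the authors' unit, read here as normalized RPKM, that is reads scaled by gene length and by the size of the library. How the values were normalized is not given in the sources used here. A gene was tested when 3 or more of the 18 libraries reached 1 nRPKM. By that filter 43 of the 46 genes, and 13075 genes in all, were tested. Mx1, Rsad2 and Ifi44 were too low, and Oasl1 passed only through the 3 libraries of anti-Ox40 with high beads.

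The cells were CD4 T cells enriched by negative selection from spleens of female NZB/W F1 mice, the hybrid of NZB and NZW parents that develops a lupus-like disease, at 21 to 27 weeks of age and with 30 to 100 mg/dL of protein in the urine. All cultures held IL-2 at 10 U/mL for 48 hours and an IgG1 antibody at 25 µg/mL. That antibody was either directed against Ox40, a costimulatory receptor of the TNF receptor family on T cells, or an isotype control (control Ig). Beads carrying antibodies to CD3 and CD28, which stand in for antigen and costimulation, were absent (no beads), added at 0.1 per cell (low beads) or added at 1 per cell (high beads). The 2 antibodies and 3 bead doses gave 6 groups of 3 libraries: control Ig with no, low and high beads, and anti-Ox40 with no, low and high beads. No culture lacked antibody or IL-2. The labels do not say whether replicates were separate mice, separate cultures or portions of a pool, so p-values here speak of the spread among these 18 libraries, which may be technical.

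Interferons are secreted proteins that warn cells of infection. Type I interferons bind the receptor of Ifnar1 and Ifnar2 and send a complex that holds IRF9 to a promoter sequence called the interferon-stimulated response element (ISRE). Interferon gamma, a product of activated T cells, binds Ifngr1 and Ifngr2 and acts through the gamma-activated site (GAS). The genes switched on encode sensors of foreign nucleic acid, proteins that block viral replication, the ubiquitin-like modifier ISG15, GTPases that attack the vacuoles of intracellular microbes, and further transcription factors that renew the response. A raised level of such genes in blood cells is a known feature of lupus.

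Promoter sequences of 8 of the genes are shown as examples of both directions of the antibody difference at high beads: Isg15 and Bst2 were higher with anti-Ox40, while the GTPase genes Gbp2, Gbp7, Igtp, Irgm2, Tgtp1 and Irgm1 were lower. Each line runs 5′ to 3′ along the gene's strand from 140 to 21 bases before the annotated start (RefSeq, GRCm38.p6). Capitals mark matches on either strand to an ISRE pattern, GAAANNGAAA, or a GAS pattern, TTCNNNGAA, where N is any base.
Isg15 (chr4:156200839-156200958, minus strand): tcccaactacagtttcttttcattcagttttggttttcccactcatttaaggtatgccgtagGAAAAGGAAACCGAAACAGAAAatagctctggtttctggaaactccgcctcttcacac
Bst2 (chr8:71537493-71537612, minus strand): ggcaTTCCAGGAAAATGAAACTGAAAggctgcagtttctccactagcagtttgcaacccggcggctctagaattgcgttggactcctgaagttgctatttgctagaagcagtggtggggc
Gbp2 (chr3:142620523-142620642, plus strand): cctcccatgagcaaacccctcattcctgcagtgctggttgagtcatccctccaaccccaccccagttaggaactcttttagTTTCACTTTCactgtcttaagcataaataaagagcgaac
Gbp7 (chr3:142530196-142530315, plus strand): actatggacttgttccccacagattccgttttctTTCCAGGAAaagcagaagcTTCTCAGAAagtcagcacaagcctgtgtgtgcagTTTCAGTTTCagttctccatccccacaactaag
Igtp (chr11:58199416-58199535, plus strand): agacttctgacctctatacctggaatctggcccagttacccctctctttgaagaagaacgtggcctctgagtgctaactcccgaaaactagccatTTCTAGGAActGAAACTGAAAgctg
Irgm2 (chr11:58214837-58214956, plus strand): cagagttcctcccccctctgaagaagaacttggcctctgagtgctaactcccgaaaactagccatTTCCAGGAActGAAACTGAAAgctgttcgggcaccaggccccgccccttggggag
Tgtp1 (chr11:48992267-48992386, minus strand): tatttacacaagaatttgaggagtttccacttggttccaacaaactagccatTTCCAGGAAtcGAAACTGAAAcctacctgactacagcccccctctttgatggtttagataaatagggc
Irgm1 (chr11:48871441-48871560, minus strand): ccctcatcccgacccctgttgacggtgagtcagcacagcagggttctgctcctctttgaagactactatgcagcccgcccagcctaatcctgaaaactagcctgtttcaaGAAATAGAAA
Isg15 has 3 overlapping ISRE matches in its window, and Bst2 has 2, the first of which overlaps a GAS match. Gbp7 has 1 ISRE match and 2 GAS matches. Irgm1 has 1 ISRE match in its window, and another that overlaps it runs past the window's end. Gbp3, also lower with anti-Ox40 at high beads but not shown, has overlapping ISRE matches too. In Igtp, Irgm2 and Tgtp1 a GAS match lies just before an ISRE match. By RefSeq's gene bounds on this build, Gbp7 (chr3:142530336-142550151), Gbp3 (chr3:142560016-142573213) and Gbp2 (chr3:142620663-142638008) are neighbours on chromosome 3. Igtp (chr11:58199556-58207592) and Irgm2 (chr11:58214977-58222783) stand side by side on chromosome 11, which also carries Irgm1 (chr11:48865245-48871420), Tgtp1 (chr11:48985329-48992246) and Ifi47 (chr11:49076587-49096987). Of the 46 genes 15 overlap another annotated gene, among them Isg15, Gbp2, Gbp3, Tgtp1 and Ifi47, and since the kit does not mark strand, reads of an overlap cannot be told apart.

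Promoters of 300 bases, 250 before the start and 50 after it, were found in RefSeq for 33 of the 46 genes. In them the ISRE pattern was present for 20 genes (60.6%), against 3.99% of all 27025 genes with a promoter, and the GAS pattern for 10 genes (30.3%), against 9.55%. Both patterns were present for 7 genes (21.2%), against 0.614% of all genes. Among the GTPases, 7 of 8 genes held the ISRE pattern and 4 of 8 the GAS pattern. Among the tested genes that have a promoter here, the ISRE pattern was found in 10 of 17 that were lower with anti-Ox40 at high beads, in 2 of 3 that were higher and in 7 of 11 that were not called. A match is a description of the letters and not a site of binding.

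Depth was read from the values: 1 nRPKM over 1 kb stood for 26.4 to 46 reads, depending on the library. Markers of CD4 T cells summed to 1460 to 1870 nRPKM in all libraries, and Cd8a and Cd8b1 to 4.36 to 6.95. Markers of other cells moved with the beads. The sum of 15 myeloid genes was 320 to 429 without beads, 40.4 to 63.1 with low beads and 11.6 to 26.3 with high beads, with none of the 15 at 0 throughout a dose, and all 14 that were tested fell between no and low beads in control Ig. B cell genes were highest in replicate 3 of every group, up to 54.1 in control Ig with low beads. Lung epithelial genes, 4 of 6 listed at 0 in all libraries without beads, summed to 0.014 to 219 with low beads and 29.1 to 121 with high beads. The nuclear RNAs Malat1, Neat1 and Kcnq1ot1 summed to 455 to 773 without beads, 294 to 646 with low beads and 114 to 193 with high beads. Their part in the results below was not tested except where a value is given. In these bulk libraries, fewer cells of a type and less RNA per cell cannot be told apart.

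The set was not a unit along the bead dose. By the mean of the 3 libraries, 24 of the 46 genes were highest at low beads in control Ig, 15 at high beads and 7 without beads. In anti-Ox40 cultures the numbers were 28, 8 and 10. These counts rank means without a test and include Mx1, Rsad2 and Ifi44, which were too low to test. They also hold near ties, such as Ifih1 in control Ig, at 4.29 nRPKM without beads and 4.35 with low beads. The same counts over all genes are not given. The heat map of all members shows a block of GTPase genes that was low without beads, a block of sensors and Ifit genes that was low at high beads, and a small group with Isg15, Usp18 and Bst2 that was highest at high beads.

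**Figure D1:**
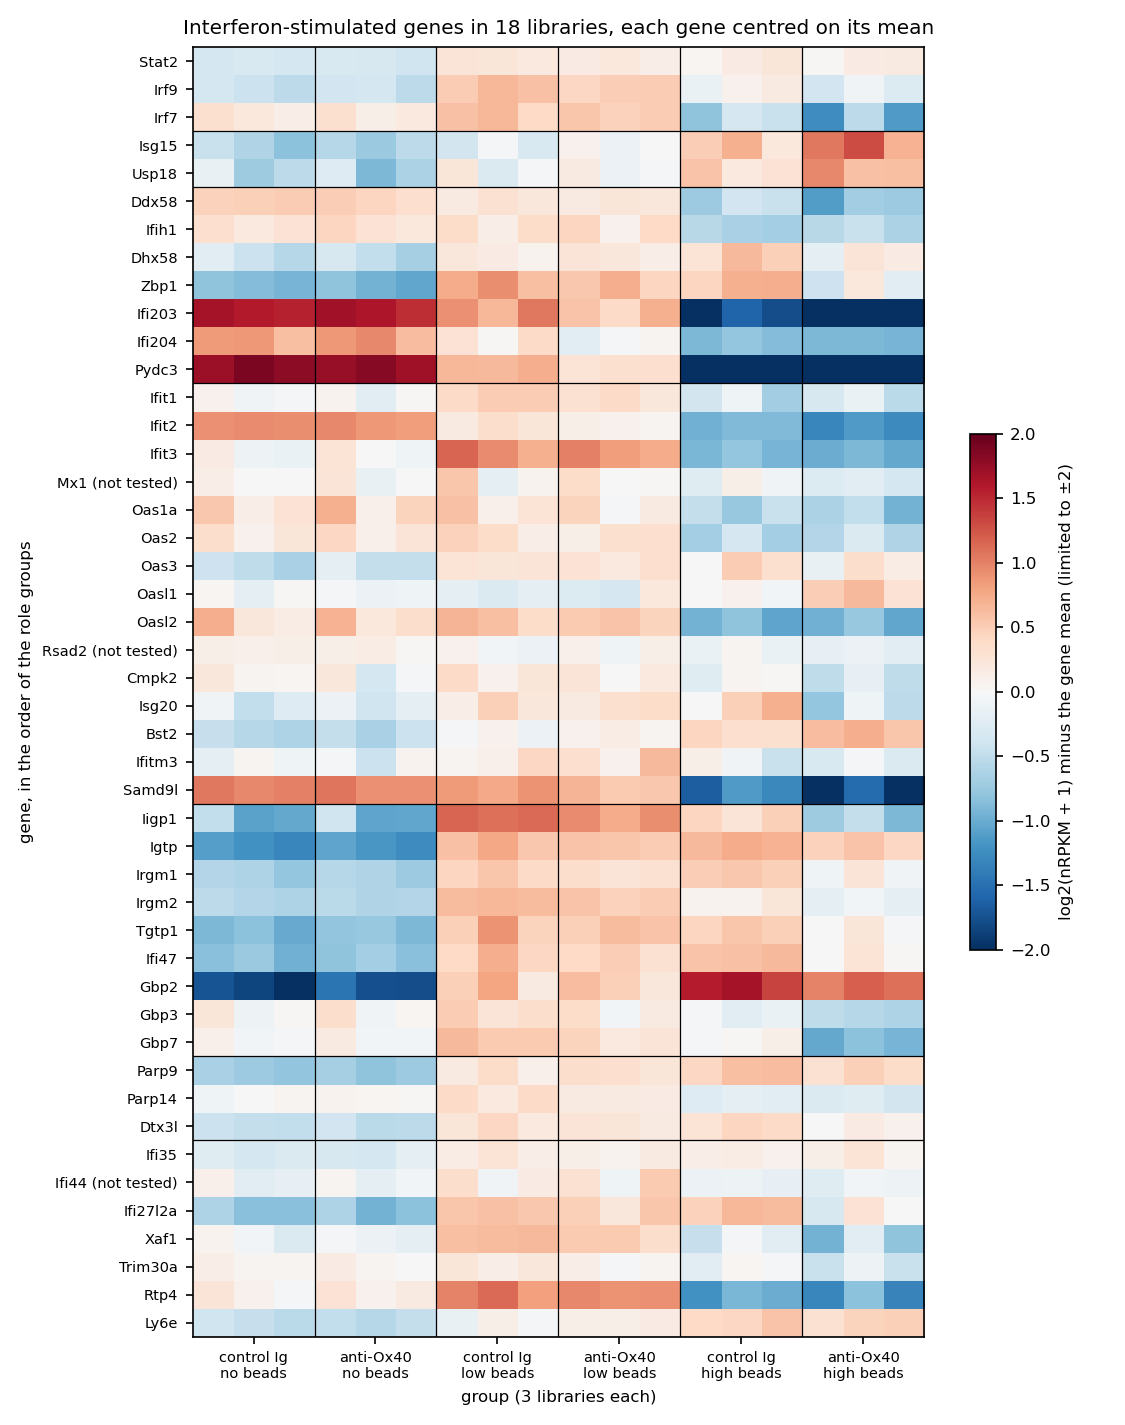
Colour gives log2(nRPKM + 1) of each of the 46 genes (rows, in the order of their roles) in each of the 18 libraries (columns, 3 per group) after subtraction of the gene's mean over all libraries, limited to 2 in either direction. Gbp2 turns from blue to red with beads in both antibody arms, while Ifi203 and Pydc3 turn from red to blue.

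Low beads raised most of the set in control Ig. Between no and low beads 28 of the 43 tested genes rose and 5 fell (limma, adjusted p under 0.05), where 32.6% of all 13075 genes rose and 29.8% fell. The median log2 change was 0.48 in the listed genes and 0.01 over all tested genes, on the log2(nRPKM + 1) scale used for every change here, which understates the changes of low genes. All 9 GTPase genes rose (median 1.35), as did both genes of the ISG15 system, all 3 of PARP and DTX3L, 2 of 3 transcription factors, and 5 of 6 other inducible genes. Antiviral effectors were split, with 5 of 13 higher and 1 lower, and 4 of the 7 sensors fell.

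Gbp2, a guanylate-binding protein that coats microbial vacuoles, had the largest rise. Its nRPKM was 29.8, 27.5 and 23.5 without beads, 141, 175 and 114 with low beads and 300, 320 and 260 with high beads in control Ig. The 3 doses did not overlap, and Gbp2 rose by 2.35 to low beads (limma, SE 0.14, adjusted p = 1.03e-09) and again by 1.05 to high beads (SE 0.14, adjusted p = 7.37e-06). Igtp, an immunity-related GTPase, was the highest GTPase gene per length, at 91.0, 84.4 and 79.0 without beads, 297, 338 and 287 with low beads and 310, 331 and 319 with high beads. It reached its level with the low dose (1.84, SE 0.07, adjusted p = 1.62e-12), and low and high beads overlapped. Iigp1, another GTPase of that family, stood at 15.6, 10.2 and 10.5 without beads, 51.5, 49.4 and 50.3 with low beads, and 30.5, 27.2 and 31.7 with high beads. Its rise of 2.00 (SE 0.17, adjusted p = 4.62e-08) was followed by a fall of 0.74 that brought it to an intermediate level at the high dose (SE 0.17, adjusted p = 0.000835).

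Some sensors and effectors went the other way. Pydc3 and Ifi203, PYHIN-family proteins whose relatives bind DNA, and Ifit2, which restrains translation of viral RNA, had the 3 largest decreases from no to low beads. Pydc3 was at 21.8, 24.8 and 23.2 nRPKM without beads, 10.1, 9.91 and 10.6 with low beads and 0.463, 0.621 and 0.567 with high beads in control Ig. It fell at each step, by 1.11 (SE 0.08, limma adjusted p = 7.38e-09) and then by 2.86 (SE 0.08, adjusted p = 2.87e-13), with no overlap between doses. Ifi203 was at 37.0, 34.8 and 33.6 without beads, 21.4, 18 and 23.9 with low beads, and 1.35, 2.94 and 2.49 with high beads. Its groups were also apart, and over both steps it fell by 3.50 (SE 0.18, adjusted p = 3.65e-11). Ifit2 went from 31.3, 31.8 and 31.4 to 18.3, 20.7 and 19.2 and then to 7.80, 8.24 and 8.24, so that its replicates lay close together and its doses far apart (fall of 0.67 to low beads, SE 0.05, adjusted p = 1.70e-08). The myeloid markers fell along the same doses, and their part in these decreases was not tested. PYHIN genes resemble each other, and reads could be shared between them.

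From low to high beads the balance turned. In control Ig 22 of the 43 genes fell and 6 rose, against 32.5% lower and 40.0% higher over all genes, and the median change was -0.32 against 0.04. Sensors (5 of 7 lower, 1 higher), antiviral effectors (7 of 13 lower, 1 higher) and transcription factors (2 of 3 lower) held most of the decreases, while the GTPases had 4 of 9 lower and 1, Gbp2, higher. Samd9l, an inhibitor of viral translation, stood at 61.9, 58.0 and 60.3 nRPKM without beads, 53.7, 50.6 and 55.6 with low beads, and 8.76, 12.9 and 11.4 with high beads. All low-bead libraries lay below all no-bead libraries, a difference of -0.17 that was not called (SE 0.15), and from low to high beads Samd9l fell by 2.19 (SE 0.15, limma adjusted p = 6.44e-09).

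Isg15, the ubiquitin-like modifier, Ly6e, a membrane protein that limits viral entry, and Gbp2 were the 3 largest increases at that step. The nRPKM of Isg15 was 3.66, 3.17 and 2.59 without beads, 3.88, 5.14 and 4.12 with low beads, and 7.86, 9.31 and 6.29 with high beads. The high-dose libraries lay above all others (0.71 against low beads, SE 0.15, limma adjusted p = 0.000563). Ly6e, the most abundant of the other inducible genes, was at 228, 217 and 206, then 272, 325 and 291, then 396, 402 and 447, and again no doses overlapped (0.49 against low beads, SE 0.07, adjusted p = 9.65e-06). With the nuclear RNA level as a covariate the calls of Gbp2, Isg15 and Ly6e at this step were lost, and the decreases of Samd9l, Ifi203 and Pydc3 were kept.

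Across the full range, from no to high beads in control Ig, 21 genes rose and 15 fell, where 43.4% and 38.9% of all genes did. The GTPases kept 7 of 9 higher, with Gbp2 at 3.40 (SE 0.14, limma adjusted p = 2.26e-12) and Igtp at 1.91 (SE 0.07, adjusted p = 3.05e-13). Gbp3 and Gbp7 were the exceptions, with changes of -0.19 and 0.03 that were not called. Zbp1, a sensor of Z-form nucleic acid that can start cell death and the highest sensor gene per length by its mean over all 18 libraries, was at 28.1, 26.9 and 25.7 without beads and at 67.6, 82.3 and 83.6 with high beads. Its groups were well apart (1.49, SE 0.13, adjusted p = 2.50e-08). RNA sensors of the RIG-I family were unequal: Ddx58 (RIG-I) fell from 28.1 ± 0.427 to 13.6 ± 1.85 (mean ± SD, n = 3), Ifih1 (MDA5) fell from 4.29 ± 0.281 to 1.84 ± 0.141, and Dhx58 (LGP2) rose from 4.40 ± 0.658 to 8.84 ± 1.24.

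Without beads, no difference between the antibodies was found in these genes. Of the 43, 0 were called and 0 had an unadjusted p under 0.05, with changes between -0.16 and 0.20 (limma). Over all genes 0.138% were called and 519 of 13075 had an unadjusted p under 0.05.

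At low beads 3 of the 43 genes were lower with anti-Ox40 and none was higher (limma), against 3.44% lower and 6.15% higher over all genes. Pydc3 was at 10.1, 9.91 and 10.6 nRPKM with control Ig and at 7.43, 7.72 and 7.76 with anti-Ox40, a fall of 0.38 (SE 0.08, adjusted p = 0.0144). Gbp7 was at 59.5, 54.6 and 54.7 against 51.6, 43.3 and 45.2 (fell by 0.27, SE 0.08, adjusted p = 0.0454), and Ifit2 at 18.3, 20.7 and 19.2 against 17.5, 17.1 and 16.8 (fell by 0.17, SE 0.05, adjusted p = 0.0476). In each the antibody groups did not overlap, but the calls leaned on single libraries. Called or not, 12 of the 43 genes had all anti-Ox40 libraries below all control Ig libraries (27.9%, against 12.8% of all genes), and 1 had them above (2.33%, against 13.1%). Without control Ig low-bead replicate 1, or without its replicate 3, none of the 3 was called, with adjusted p of 0.0589 to 0.182 and 0.0736 to 0.134. Without anti-Ox40 low-bead replicate 2 or replicate 3, only Pydc3 was, and Ifit2 alone was lost when the second control Ig library or the first anti-Ox40 library was left out. Markers of lung epithelium moved with this comparison: all 6 were higher with anti-Ox40 (median change 1.54), with sums of 0.014 to 26.3 nRPKM in control Ig and 39.2 to 219 in anti-Ox40. Their part in the result was not tested.

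High beads gave the main difference between the antibodies. With anti-Ox40 21 of the 43 genes were lower and 3 were higher than with control Ig (limma), where 11.6% of all genes were lower and 14.4% higher. The median change was -0.25 in the listed genes and 0.00 over all tested genes. In 15 genes all 3 anti-Ox40 libraries lay below all 3 control Ig libraries (34.9% of 43, against 19.5% of all genes), and in 3 they lay above (6.98%, against 23.8%). Every one of the 9 GTPase genes was lower, by 0.21 to 1.08, with a median change of -0.44, and in each of the 9 the antibody groups did not overlap. The other decreases were 4 of 7 sensors, 3 of 13 antiviral effectors, 2 of 3 transcription factors, 2 of 6 other inducible genes and 1 of 3 of PARP and DTX3L. Isg15, Oasl1 and Bst2 were the 3 increases.

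**Figure D2:**
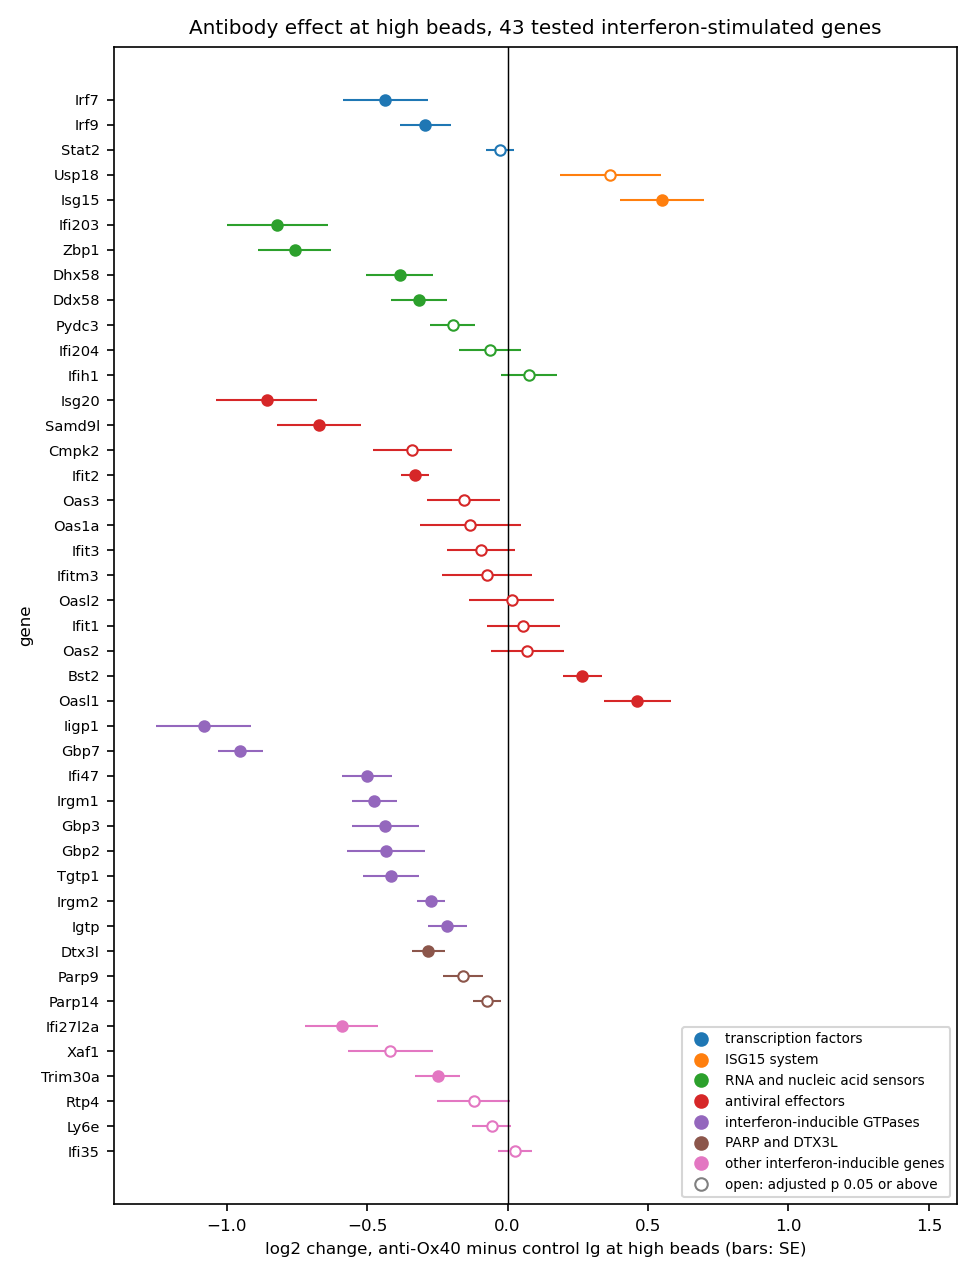
Points give the log2 change of each of the 43 tested genes, anti-Ox40 minus control Ig at high beads, with the limma standard error as bars, coloured by role. Filled points have an adjusted p under 0.05. All 9 GTPase genes lie left of 0 with filled points, from Iigp1 at -1.08 to Igtp at -0.21, and Isg15, Oasl1 and Bst2 are the filled points on the right.

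Among the GTPases, Gbp7 differed most firmly. Its nRPKM was 36.5, 38.2 and 40.9 with control Ig and 18, 21.0 and 19.4 with anti-Ox40, so that the lowest control library was well above the highest anti-Ox40 library (-0.95, SE 0.08, limma adjusted p = 3.67e-06). Iigp1 was at 30.5, 27.2 and 31.7 against 13.4, 15.9 and 11.6, close to its level of 10.2 to 15.6 in control Ig without beads (-1.08, SE 0.17, adjusted p = 0.000322). Irgm1, which regulates other GTPases of its family and autophagy, was at 82.0, 84.3 and 81.1 against 54.3, 69.0 and 54.8 (-0.48, SE 0.08, adjusted p = 0.000539). Its relative Irgm2 was at 27.5, 27.5 and 31.3 against 22.7, 25.2 and 22.9 (-0.27, SE 0.05, adjusted p = 0.00143). In both, anti-Ox40 replicate 2 was the library nearest to the controls. Ifi47, a further GTPase of this family, was at 197, 199 and 207 against 133, 159 and 134 (-0.50, SE 0.09, adjusted p = 0.000748), again with replicate 2 nearest to the controls. Tgtp1, Gbp2, Gbp3 and Igtp were lower by 0.42, 0.43, 0.44 and 0.21. Tgtp1 has the near-identical neighbour Tgtp2, and Gbp genes resemble each other, so reads could be split between copies.

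**Figure D3:**
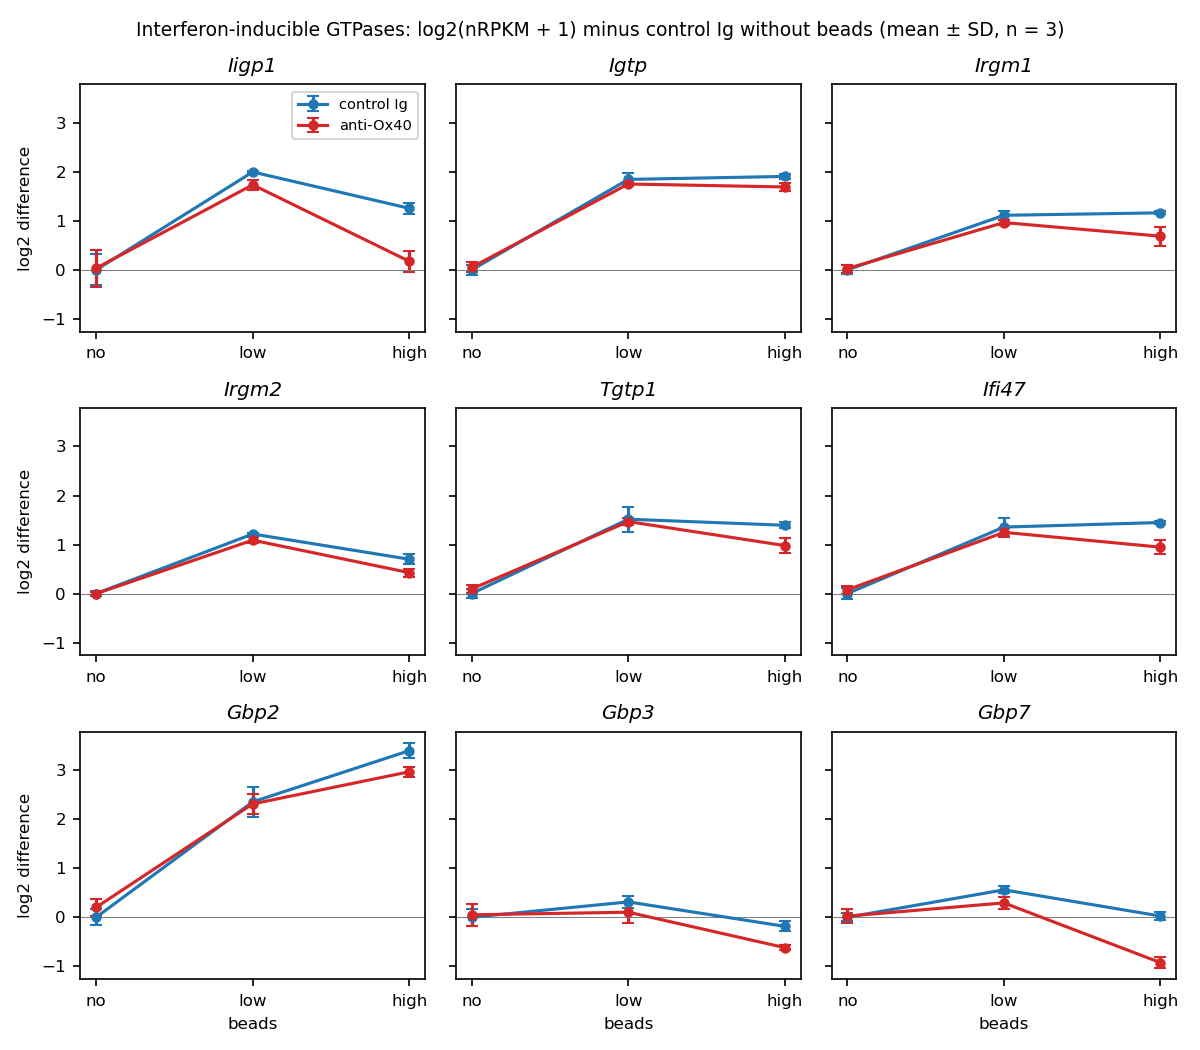
Each panel gives 1 GTPase gene as the mean ± SD (n = 3) of log2(nRPKM + 1) minus the mean of control Ig without beads, by bead dose, for control Ig (blue) and anti-Ox40 (red). The antibody lines run together without beads and part at high beads, where red is below blue in all 9 panels; Gbp7 ends near 0 in control Ig and near -1 in anti-Ox40.

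The sensor with the firmest decrease was Zbp1, at 67.6, 82.3 and 83.6 nRPKM with control Ig and 37.4, 58.3 and 43 with anti-Ox40, groups that did not overlap (-0.76, SE 0.13, limma adjusted p = 0.000808). Ifi203 was at 1.35, 2.94 and 2.49 against 0.439, 1.42 and 0.696, low levels at which the groups overlapped (-0.82, SE 0.18, adjusted p = 0.00415). Ddx58 and Dhx58 were lower by 0.32 and 0.38, whereas Ifih1 changed by 0.08 and was not called. Among the antiviral effectors, Isg20, an exonuclease that degrades viral RNA, was at 6.30, 9.23 and 11.0 against 3.28, 5.90 and 4.08 (-0.86, SE 0.18, adjusted p = 0.00272). The spread within each antibody was wide, and the gap between the groups was small. Ifit2 showed a smaller but tight difference, with 7.80, 8.24 and 8.24 against 5.92, 6.76 and 6.05 (-0.33, SE 0.05, adjusted p = 0.000347). Samd9l was at 8.76, 12.9 and 11.4 against 5.24, 9.48 and 5.37, and the groups overlapped (-0.67, SE 0.15, adjusted p = 0.00495).

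Of the transcription factors, Irf9, the DNA-binding part of the type I interferon complex and the most abundant of the 3, was at 26.1, 30.5 and 32.5 with control Ig and 21.6, 27.1 and 23.5 with anti-Ox40, with overlap (-0.29, SE 0.09, limma adjusted p = 0.0193). Irf7, the main inducer of interferon alpha genes, was lower by 0.44 (adjusted p = 0.0452), and Stat2 was not called at -0.03 (SE 0.05). Dtx3l, a ubiquitin ligase that works with PARP9, was at 47.9, 53.7 and 51.6 against 39.4, 44.2 and 42.0, without overlap (-0.28, SE 0.06, adjusted p = 0.00345). Parp9 and Parp14 were not called. Dtx3l and Parp9 overlap each other on chromosome 16. Ifi27l2a, a small interferon-induced mitochondrial protein, was at 85.0, 98.6 and 95.8 against 49.3, 75.4 and 62.0 and did not overlap between antibodies (-0.59, SE 0.13, adjusted p = 0.00301). Trim30a, a ubiquitin ligase of the TRIM family, was lower by 0.25 (adjusted p = 0.0396).

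Isg15 and Bst2, which had risen along the bead dose in control Ig, were higher still with anti-Ox40. Isg15 was at 7.86, 9.31 and 6.29 nRPKM with control Ig and 12.1, 14.6 and 9.21 with anti-Ox40, where the lowest anti-Ox40 library fell just under the highest control (0.55, SE 0.15, limma adjusted p = 0.0137). Usp18, the protease that removes ISG15 and dampens the type I receptor, was at 12.8, 9.65 and 10.4 against 17.1, 13 and 13.1. The groups were apart, but the change of 0.37 was not called (SE 0.18, adjusted p = 0.153). Bst2 (tetherin), which holds budding virus at the membrane and was the most abundant antiviral effector per length by its mean over all 18 libraries, was at 68.3, 64.4 and 63.3 against 77.9, 84.1 and 74.6, without overlap (0.27, SE 0.07, adjusted p = 0.00712). Oasl1, a relative of the RNA-activated OAS enzymes that represses Irf7 translation, was at 0.738, 0.819 and 0.656 against 1.43, 1.69 and 1.10 (0.46, SE 0.12, adjusted p = 0.0127). It could only be tested because of its level with anti-Ox40, so the filter favoured a call in this direction, and every count of increases at high beads that includes Oasl1 rests on it in part. Without Oasl1 the called increases number 2, Isg15 and Bst2, and the genes lying wholly above the controls number 2, Bst2 and Usp18. Oasl1 was described after its values were seen.

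**Figure D4:**
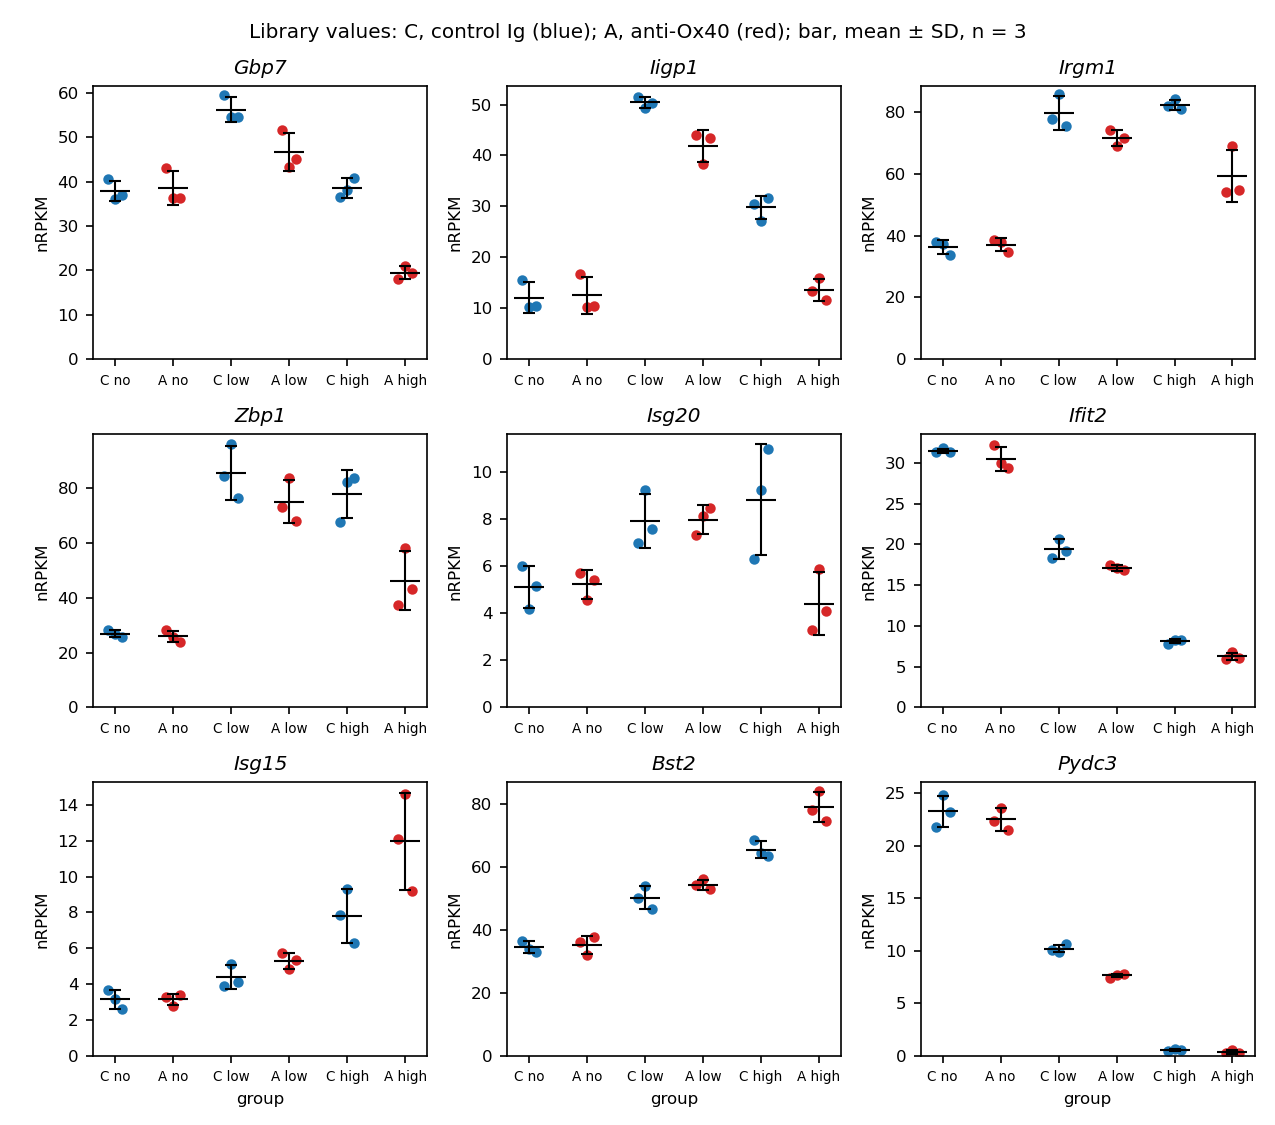
Points give the nRPKM of each library for 9 genes in the 6 groups, control Ig (C, blue) and anti-Ox40 (A, red) with no, low and high beads, and bars give the mean ± SD (n = 3). Gbp7 and Iigp1 separate by antibody at high beads, Isg15 and Bst2 climb with dose and are higher in red at the high dose, and Pydc3 falls to below 1 nRPKM at high beads in both arms.

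The 24 calls at high beads differed in how much they leaned on single libraries. Zbp1, Ifit2, Iigp1, Irgm1, Ifi47 and Gbp7 were called in every setting tried. When each high-bead library was left out in turn, between 16 and 23 of the 24 calls were kept. Leaving out control Ig replicate 2 or 3, or anti-Ox40 replicate 1 or 3, ended the calls of Irf9, Irf7, Trim30a and Igtp in each case, and Ddx58 and Dhx58 were lost without the first 3 of these libraries. Gbp2 was lost when either of the first 2 control Ig libraries was left out, and likewise for the first and last anti-Ox40 libraries. Isg15 lost its call without the last control Ig library or either of the first 2 anti-Ox40 libraries, and Oasl1 without that control or the second anti-Ox40 library. The adjusted p of the lost calls lay between 0.0515 and 0.227. Without replicate 3 of all groups, the library with the most B cell RNA, 10 genes were called, 7 lower and 3 higher. With the B cell marker level as a covariate all 24 calls were kept. In a fit to the 2 groups alone 16 of the 24 were kept, and Isg15 was among those lost.

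Markers of some cell types differed in this comparison too, where 11.6% of all genes were lower and 14.4% higher. No tested marker of B cells, neutrophils, dendritic cells or lung epithelium was called. The 8 CD4 T cell genes summed to 1710 to 1790 nRPKM with control Ig and 1460 to 1540 with anti-Ox40 (5 of 8 lower, none higher). The 15 myeloid genes summed to 16.3 to 26.3 against 11.6 to 15.2 (1 of 14 tested lower, Ms4a6c), and 17 of the 24 calls were kept with their level as a covariate. Those lost were Irf9, Irf7, Ddx58, Dhx58, Bst2, Gbp2 and Trim30a. The nuclear RNAs summed to 157 to 193 against 114 to 127, and 19 calls were kept with their level as a covariate. Here Irf7, Isg15, Ddx58, Dhx58 and Trim30a were lost. Platelet genes summed to 9.65 to 13.3 against 6.67 to 7.06 (1 of 6 lower), NK cell genes to 6.56 to 9.48 against 4.49 to 7.83 (0 of 4 tested called), and plasmacytoid dendritic cell genes to 51.9 to 58.9 against 48.4 to 52.3 (3 of 6 tested lower, and most of the sum was Irf8). Their part in the result was not tested.

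The difference in the antibody effect between doses was tested directly. From no to high beads the antibody effect was called more negative for 9 of the 43 genes and more positive for 0 (limma), against 4.70% and 6.40% of all genes. These 9 were Gbp7, Iigp1, Ifi47, Irgm1, Tgtp1, Irgm2, Ifit2, Zbp1 and Isg20, with differences from -0.27 in Irgm2 to -1.11 in Iigp1. From low to high beads 1 of the 43, Gbp7, was called (-0.68, adjusted p = 0.00881), where 1.70% of all genes were lower and 1.47% higher. From no to low beads 0 of the 43 differed (limma; 5 had an unadjusted p under 0.05), with 0.268% called over all genes. For Isg15, Bst2 and Oasl1 the effect did not differ between no and high beads by the test (0.54, 0.23 and 0.51, adjusted p = 0.114, 0.115 and 0.077), nor for Gbp2 (-0.64, adjusted p = 0.0542). The count of 9 was down to 4 without anti-Ox40 no-bead replicate 1, control Ig high-bead replicate 3 or anti-Ox40 high-bead replicate 1, and to 5 without control Ig no-bead replicate 3 or high-bead replicate 2. It rose to 14 without control Ig high-bead replicate 1 and to 17 without anti-Ox40 high-bead replicate 2. For Gbp7 from low to high beads the call held without any single library, but the number of called genes rose to 8 without control Ig low-bead replicate 2, to 7 without anti-Ox40 high-bead replicate 2 and to 2 without control Ig high-bead replicate 1.

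Within anti-Ox40 cultures the set rose on balance to the low dose and fell on balance beyond it. From no to low beads 28 genes rose and 5 fell (limma; 37.1% and 33.7% of all genes). From low to high beads 6 rose and 30 fell (40.3% and 31.2%), with a median change of -0.63 over the 43 and 0.05 over all genes. From no to high beads 19 rose and 19 fell (45.2% and 39.3%). Between low and high beads 7 of 9 GTPase genes fell, and both genes of the ISG15 system rose. Igtp was at 94.3, 87.6 and 82.0 nRPKM without beads, 292, 290 and 280 with low beads, and 272, 292 and 263 with high beads. Gbp7 was at 43, 36.3 and 36.4, then 51.6, 43.3 and 45.2, then 18, 21.0 and 19.4, so that its high-dose libraries were the lowest of all 18.

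The ligands themselves were scarcely detected. Of 21 interferon genes only Ifng passed the filter, and of the other 20, 13 were listed at 0 in all libraries and the highest single value was 0.234 nRPKM. Ifng, which encodes interferon gamma, lay between 0.678 and 3.97 over the 18 libraries and was not called in any antibody comparison (0.19 at low beads, SE 0.24; -0.09 at high beads, SE 0.24; limma). From low to high beads it fell, by 0.62 in control Ig (SE 0.24, adjusted p = 0.0278), where the doses overlapped, and by 0.90 in anti-Ox40 (SE 0.24, adjusted p = 0.0031), where they did not. Ifngr1, a chain of the interferon gamma receptor, fell along the beads. It was at 284, 269 and 278 without beads, 195, 189 and 172 with low beads, and 89.5, 90.4 and 88.7 with high beads in control Ig, with all doses apart. With anti-Ox40 at high beads it was at 62.0, 67.0 and 66.4, below all control libraries (-0.45, SE 0.07, adjusted p = 0.000309). Ifnar1 was at 15.6, 16.9 and 17.2 with control Ig and 12.5, 13.4 and 12.3 with anti-Ox40 at high beads, again without overlap (-0.35, SE 0.04, adjusted p = 5.62e-05). At low beads Ifnar1 was also lower with anti-Ox40 (-0.21, adjusted p = 0.0116). Of 5 tested receptor genes 4 were lower with anti-Ox40 at high beads and none was higher, against 11.6% and 14.4% of all genes, and Ifngr2 was the one not called.

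Between the receptors and the genes described above stand the kinases and factors of the pathway. Irf1, which drives GTPase and antigen-processing genes after interferon gamma, was at 77.7, 77.2 and 81.0 nRPKM with control Ig and 64.5, 69.4 and 60.6 with anti-Ox40 at high beads (-0.28, SE 0.05, limma adjusted p = 0.00058). The antibody groups did not overlap. Jak1, a kinase of both receptors, Irf2 and Pias1 were also lower with anti-Ox40 at high beads, by 0.26, 0.19 and 0.17. A count for the whole pathway list is not given here. Over all genes 11.6% were lower and 14.4% higher. The feedback inhibitor Socs1 was not called, at 191 ± 10.5 and 179 ± 10.7 (mean ± SD, n = 3; -0.09, SE 0.12).

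A further list of 65 interferon-stimulated genes, of which 64 were in the table and 56 were tested, was tested in the same way. It too was chosen with earlier results of these data known, so its counts are not independent support. At high beads 25 were lower with anti-Ox40 and none was higher, with a median change of -0.22 (limma), where 11.6% of all genes were lower and 14.4% higher. At low beads 2 were lower and 1 higher, against 3.44% and 6.15% of all genes, and without beads 0 were called, with 1 at an unadjusted p under 0.05. Pyhin1, a PYHIN relative of Ifi203, had the smallest adjusted p, at 1.81 ± 0.487 with anti-Ox40 and 4.49 ± 0.919 with control Ig (mean ± SD, n = 3; -0.96, SE 0.12, adjusted p = 7.30e-05). Phf11b fell from 14.7 ± 1.66 to 6.82 ± 1.31 (-1.01, adjusted p = 9.33e-05). Tap1, which carries peptides to MHC class I molecules, went from 172 ± 5.12 to 134 ± 6.67 (-0.36, adjusted p = 0.000187), and Nlrc5, the transcriptional activator of that pathway, from 36.3 ± 0.916 to 24.8 ± 1.29 (-0.53, adjusted p = 0.000493). Gbp10 and Uba7, the activating enzyme for ISG15, were each lower by 0.54. Along the beads, Ly6a (Sca-1) had the largest rise of the list in control Ig, from 69.5 ± 9.07 to 899 ± 75.6, and Mndal the largest fall, from 31.1 ± 2.11 to 3.03 ± 0.919. Gbp11 and Pml also rose, and Ddx60 and Ifitm1 also fell.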

How the data were processed

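RNA of 18 libraries of cultured CD4 T cells was read from 1 deposited table of nRPKM values, read here as RPKM values normalized by the authors, since only the name says so. The submitters' processing notes name the aligner GSNAP and the build GRCm38. The sources used here do not give the annotation, the counting or the scaling between libraries. Libraries were made with a kit that does not mark strand, from 100 to 500 ng of RNA. An added check took the low values of microRNA genes as whole reads and gave 26.4 to 46 reads per nRPKM over 1 kb, which covers counting error only. Entries without a symbol number 6 of 36528.

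Genes that reached 1 nRPKM in 3 or more libraries were tested on log2(nRPKM + 1), a pseudocount of 1, with limma 3.58.1 in R 4.3.3 (1 mean per group, all 18 libraries, trend in eBayes, 12 residual degrees of freedom). A call means an adjusted p under 0.05 (Benjamini-Hochberg over 13075 genes, 2-sided). The script was tested on simulated data. Contrasts were the antibodies at each dose, the doses within each antibody, and differences of the antibody effect between doses. Contrasts share groups, so their results are not independent.

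Library values are given for the 12 listed genes with the smallest adjusted p in an antibody comparison, the 3 largest rises and falls in each bead comparison of control Ig, and the most abundant gene of each role. Of the further list, the 4 largest rises and falls and the 6 smallest adjusted p were named. Members, lists and rules were chosen with earlier results of these data known. 1 gene of the signalling list is not reported here.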

Additional observations from a re-analysis of the deposited data

Results flagged for a closer look

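For 9 genes the antibody effect differed between no and high beads by a test of the difference itself (limma), and all 9 differences were negative. Gbp7 differed by -0.97 (adjusted p = 0.000353), Iigp1 by -1.11 (adjusted p = 0.0106), Ifi47 by -0.58 (adjusted p = 0.0109), Irgm1 by -0.50 (adjusted p = 0.0133) and Ifit2 by -0.29 (adjusted p = 0.0221). Zbp1 differed by -0.70 (adjusted p = 0.0275), Irgm2 by -0.27 (adjusted p = 0.0292), Tgtp1 by -0.51 (adjusted p = 0.0357) and Isg20 by -0.89 (adjusted p = 0.0369). For Gbp7 the effect also differed between low and high beads, by -0.68 (adjusted p = 0.00881). Of these genes 6 encode GTPases. Over 24 other settings the difference between no and high beads lost its call in 1 for Gbp7 and for Iigp1, 2 for Irgm1 and for Ifi47, 6 for Ifit2, 9 for Irgm2, 11 for Zbp1 and for Tgtp1, and 12 for Isg20. For Gbp7 between low and high beads it was lost in 1 of 24. The setting without the libraries highest in B cell markers ended every one of these calls. That fit leaves 2 libraries per group. Over all genes it called 7 differences between no and high beads and 3 between low and high beads. With the B cell marker level as a covariate all 9 calls were kept, as was that of Gbp7 between low and high beads.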

How the results depend on the processing

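The settings tried were other pseudocounts, no filter, no trend, a fit to the compared groups alone, other scalings, a block, marker covariates and left-out libraries. No direction turned. Of 228 alternative counts 192 stayed within 1.5 times the main count.

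At low beads the 3 antibody calls became 1 with a pseudocount of 0.1, without the filter, without the trend, in a fit to the 2 groups alone or with the myeloid level as a covariate, and 0 without the libraries highest in B cell markers or with the nuclear RNA level as a covariate. With single libraries left out they were 0 to 5. At high beads the 24 antibody calls became 10 without the libraries highest in B cell markers, a fit that leaves 2 libraries per group and called 1387 genes in all. With the B cell marker level as a covariate all 3 calls at low beads and all 24 at high beads were kept. With nuclear RNA as a covariate, high against low beads gave 18 calls in control Ig and 23 in anti-Ox40. High against no beads gave 18 in anti-Ox40, where 7 were higher and 11 lower. Nuclear RNA itself fell to high beads, so these bead comparisons cannot separate its level from the dose. Leaving out single libraries gave 0 to 2 calls for the difference of the antibody effect between no and low beads, the 2 arising without control Ig low-bead replicate 2, 1 to 8 between low and high beads and 4 to 17 between no and high beads. Between low and high beads that difference gave 2 calls in a fit to the compared groups alone, with nuclear RNA or with the myeloid level as a covariate, and 0 without the libraries highest in B cell markers. Between no and high beads it gave 5 without the filter, 2 with the myeloid level and 0 without the libraries highest in B cell markers. With the B cell marker level as a covariate every main call of both differences was kept. The cause was not tested, apart from the fewer libraries or more genes that a setting itself brings.

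The labels give no shared numbers, and replicate numbers here follow accession order. Whether libraries of 1 number form a matched set is not stated, and the main fit holds no block. With that number as a replicate block, the difference of the antibody effect gave 4 calls between low and high beads, 1 higher and 3 lower, and 14 between no and high beads, 1 higher and 13 lower, and other counts stayed within 1.5 times. In their deviation from the group mean, 18 of 18 libraries were most alike a library of the same number in another group, with correlations from -0.16 to 0.35 for same numbers and -0.28 to 0.20 for others. Genes under about 1 nRPKM, such as Ifi204 and Ifit3 at high beads, rest on few reads, and the pseudocount shrinks their changes.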

Other observations

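Genes that sense nucleic acid upstream of interferon, 10 of 12 listed being tested, mostly did not differ between the antibodies. At high beads 1 was lower with anti-Ox40 and none higher (limma), where 11.6% of all genes were lower and 14.4% higher, so the count is near the background. That gene was Ikbke, a kinase that activates IRF3 and IRF7, at 32.0 ± 2.98 nRPKM with control Ig and 23.8 ± 2.80 with anti-Ox40 (mean ± SD, n = 3; -0.41, SE 0.08, adjusted p = 0.00199). It was also lower at low beads (-0.29, SE 0.08, adjusted p = 0.0422). Its relative Tbk1 was not called at high beads (-0.06, SE 0.05), nor was the adaptor Tmem173, known as STING (-0.01, SE 0.05).

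Along the beads in control Ig these genes diverged. Ikbke fell from 93.5 ± 5.16 without beads to 32.0 ± 2.98 with high beads (-1.52, SE 0.08, limma adjusted p = 6.07e-11), and Tbk1 fell from 42.6 ± 0.661 to 28.4 ± 0.174. Tmem173 rose from 56.4 ± 2.09 to 81.7 ± 2.11, Mb21d1, the DNA sensor cGAS, from 2.78 ± 0.128 to 5.56 ± 0.270, and Myd88, an adaptor of Toll-like receptors, from 26.2 ± 0.849 to 45.8 ± 1.58. The factor Irf8 rose from 5.46 ± 0.586 to 46 ± 3.58 (2.86, SE 0.12, adjusted p = 3.01e-12). Irf8 is also expressed by plasmacytoid dendritic cells. Of other genes on the list of their markers, Ccr9, Pacsin1 and Tcf4 fell from no to high beads in control Ig, to 0.485, 4.87 and 0.557 nRPKM, Lair1 rose from 1.33 to 2.61, Cox6a2 was not called (0.767 and 0.752), Siglech was at most 0.02 at high beads, and Siglech and Klk1 were too low to test. Their part in the Irf8 level was not tested.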
